A study of Rattus norvegicus with 28 samples.

Results

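The genes described here are the rat genes of the major histocompatibility complex (MHC) and the machinery that loads peptides onto its products. They were chosen by symbol from the deposited gene table, as every gene whose name begins with RT1, the name of the rat MHC, together with B2m, Cd74, Tap1, Tap2, Tapbp, Ciita and Nlrc5. The rule found 36 of the 17002 genes, each with a value above 0 in at least 1 library, and Nlrc5 was not found under that symbol. There were 30 RT1 genes, of which 20 encode class I heavy chains and 10 encode class II chains or the class II loading chains DM and DO. Genes whose deposited values averaged 10 or more across all libraries were tested, which left 35 of the 36 and dropped RT1-T18.

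Lungs of Sprague Dawley rats, an outbred stock, gave 28 strand-specific libraries of polyadenylated RNA, all from the right upper lobe. The labels name no genetic change in any animal, and the groups differed in lung injury and in mechanical ventilation, which kept the tidal volume constant (VCV) or varied it (noisy). Uninjured lungs were unventilated (control_blank, n = 3), ventilated with constant volume (healthy_VCV, n = 4) or with variable volume (healthy_noisy, n = 3). Lungs with acute injury were ventilated with constant volume (acute_VCV, n = 3) or variable volume (acute_noisy, n = 4). Lungs with chronic injury were unventilated and taken 14 days after its induction (control_chronic, n = 5), or ventilated with constant volume (chronic_VCV, n = 3) or variable volume (chronic_noisy, n = 3). The agents used for injury, the age of the animals and the length of ventilation are not given in the sources used here, and no unventilated group with acute injury was analysed here.

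MHC class I molecules display peptides from inside the cell to CD8 T cells. Their heavy chain pairs with B2m, the light chain, and receives peptides that Tap1 and Tap2 pump into the endoplasmic reticulum, with Tapbp (tapasin) holding the chain beside the transporter. Class II molecules display peptides from endosomes to CD4 T cells and are carried mainly by B cells, dendritic cells and macrophages, and in the lung also by alveolar type II cells. Cd74, the invariant chain, fills their groove until DM exchanges its remnant for a peptide, DO restrains DM, and Ciita switches class II genes on. Interferon gamma raises the transcription of both classes.

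Promoter sequences show how members of each class are built upstream. RefSeq (GRCr8) gave a promoter of 250 bases before and 50 bases after the start for 32 of the 36 genes. Each sequence reads 5′ to 3′ on the gene's strand, with capitals on the motif letters searched, which were found on either strand. RT1-A2 (chr20:4872621-4872920, plus strand) stands for the classical class I heavy chains and carries an enhancer A core and a Y box, B2m (chr3:129549080-129549379, plus strand) and Tap1 (chr20:4668494-4668793, minus strand) each carry an interferon element core, RT1-Da (chr20:4515165-4515464, plus strand) carries an X box core and a Y box, and RT1-DOa (chr20:4758374-4758673, minus strand) carries a Y box.
RT1-A2: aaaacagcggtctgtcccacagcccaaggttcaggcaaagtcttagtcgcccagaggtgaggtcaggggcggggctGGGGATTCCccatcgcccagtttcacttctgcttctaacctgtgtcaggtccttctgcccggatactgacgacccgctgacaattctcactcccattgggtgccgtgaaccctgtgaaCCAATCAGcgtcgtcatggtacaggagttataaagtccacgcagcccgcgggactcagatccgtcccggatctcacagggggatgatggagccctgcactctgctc
B2m: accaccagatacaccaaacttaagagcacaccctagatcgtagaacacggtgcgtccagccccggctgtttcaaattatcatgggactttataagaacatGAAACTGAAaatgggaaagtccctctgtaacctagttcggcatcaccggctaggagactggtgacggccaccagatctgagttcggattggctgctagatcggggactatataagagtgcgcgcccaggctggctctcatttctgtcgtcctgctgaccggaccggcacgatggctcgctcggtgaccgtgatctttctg
Tap1: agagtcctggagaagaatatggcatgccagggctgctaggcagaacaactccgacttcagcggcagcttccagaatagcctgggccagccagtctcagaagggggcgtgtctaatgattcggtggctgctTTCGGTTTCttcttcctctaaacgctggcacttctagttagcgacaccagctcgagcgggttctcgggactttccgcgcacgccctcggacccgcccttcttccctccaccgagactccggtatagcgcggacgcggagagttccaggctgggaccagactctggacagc
RT1-Da: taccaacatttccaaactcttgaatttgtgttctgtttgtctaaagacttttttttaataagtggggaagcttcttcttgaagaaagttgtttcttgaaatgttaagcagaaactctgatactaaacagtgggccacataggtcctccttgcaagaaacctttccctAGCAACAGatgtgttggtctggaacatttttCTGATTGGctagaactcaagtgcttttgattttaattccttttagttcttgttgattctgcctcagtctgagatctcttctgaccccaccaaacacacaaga
RT1-DOa: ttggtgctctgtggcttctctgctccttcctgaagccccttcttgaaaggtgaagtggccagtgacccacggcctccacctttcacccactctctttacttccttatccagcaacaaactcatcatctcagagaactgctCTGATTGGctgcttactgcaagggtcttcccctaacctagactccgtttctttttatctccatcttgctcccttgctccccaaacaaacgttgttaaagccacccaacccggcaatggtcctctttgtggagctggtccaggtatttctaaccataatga

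The Y box (CTGATTGG) lay in 13 of the 32 promoters, 7 of 10 class II and 6 of 18 class I, against 3.5% of all 33469 promoters of the same length. An X box core (AGCAACNG) lay in 5 of the 10 class II promoters and in 0 of 18 class I promoters, against 4.72% of all. An enhancer A core (GGGGATTCC) lay in 5 of 18 class I promoters (RT1-A1, RT1-A2, RT1-CE3, RT1-CE4 and RT1-CE10) and 0 of 10 class II promoters, against 0.281% of all. The interferon element core (GAAANNGAA) lay in 7 promoters, those of B2m, Tap1, Tap2, Tapbp, RT1-N3, RT1-S2 and RT1-S3, against 9.71% of all. Only this string was searched, and other forms of the element were not. A promoter without a match, such as that of RT1-A2, is therefore not shown to lack an interferon element. Both strands were searched, matches of different motifs did not overlap, and the 2 interferon element matches in each of RT1-N3 and Tapbp overlapped each other. The motifs were chosen after the promoters had been read. Such matches are descriptions of letters, and binding was not measured.

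Values are the deposited ones, in which each library's read counts were divided by its size factor. They compare a gene between libraries but not 1 gene with another, because transcript lengths were not used. Whole reads recovered from these values numbered between 6024093 (control_chronic_113) and 31923838 (acute_VCV_040). Differences are log2 differences ± SE of log2(deposited value + 1) from limma, with p adjusted by the Benjamini-Hochberg method over the 14908 genes tested, and a gene is said to rise or fall where that p is under 0.05. Nothing in the labels states that the libraries of a group are separate animals, so the p-values measure the spread between libraries. Lung epithelial markers (7 of 8 found, among them Sftpc and Scgb1a1) summed to 366846 to 734579.9 in acute_noisy and 1082164 to 2150010.0 in control_blank, and 0 of the 7 were at 0 throughout a group. Heart muscle markers were also present, with sums of 156 to 547 in chronic_VCV and 6281 to 12835 in control_blank.

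The titles number the libraries in series 12, 14, 15 and 18, whose meaning the labels do not give. Series 12 held all control_blank and acute_VCV libraries, so acute_VCV against control_blank is the 1 comparison within a single series. Series 18 held control_chronic and series 14 held chronic_noisy, healthy_VCV 025, 057 and 060, and acute_noisy 047 and 050. Series 15 held healthy_noisy, chronic_VCV, healthy_VCV 062 and acute_noisy 046 and 053. In the other comparisons with an unventilated group, and in acute_noisy against acute_VCV, the series and the group cannot be told apart. Chronic_noisy and chronic_VCV lie in different series too, and a series term there rests on the groups that hold libraries of both. Class I heavy chains are a family of close copies, and how reads that match several copies were counted is not given in the sources used here, so the split of reads among RT1-A, RT1-C/E and RT1-M to RT1-T genes is uncertain.

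Among individual libraries, RT1-N1 (ENSRNOG00000029386), a non-classical class I heavy chain gene, came closest to an all-or-none pattern. It stood at 195 to 749 in 13 libraries and at 0 to 45.8 in the other 15, and high and low libraries occurred side by side in 7 of the 8 groups. Values were 0.81, 0.55 and 0.8 in control_blank, 1.66, 252, 319.8 and 11.1 in healthy_VCV and 429, 45.8 and 311 in healthy_noisy. In acute injury they were 301, 1.91 and 326 in acute_VCV and 8.12, 439.7, 16.9 and 277 in acute_noisy. In chronic injury they were 0, 718, 7.64, 585 and 5.35 in control_chronic, 15.3, 195 and 509 in chronic_VCV and 749, 15.3 and 18.3 in chronic_noisy. All 3 control_blank libraries lay on the low side, each with 1 recovered read, while control_chronic_113 had 0 recovered reads, which allows up to 3 in its 6024093 and covers counting error only. The low side was not uniform, since healthy_noisy_061 held 38 recovered reads.

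By the rule used for such patterns, at least 2 libraries at or under 3 recovered reads and at least 2 at or over 100, RT1-N1 was the 1 member among 35 that met it, and 106 of the 14908 genes tested (0.711%) met it. A range of at least 4 on the log2 scale within at least 3 groups was met by 2 members, RT1-N1 and RT1-M1-2, and by 29 genes in all (0.195%). RT1-M1-2, another non-classical class I gene, was at 0 in all 3 control_blank libraries and reached 70.6 in healthy_noisy_078 and 67.3 in control_chronic_116. Its levels were low throughout, with 69 recovered reads at most.

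The 13 libraries high in RT1-N1 were also the 13 highest in RT1-T24-1, which stood at 116.5 to 376.8 in them and at 16.8 to 68.2 in the other 15. They included 12 of the 13 highest libraries of RT1-M1-2 and of RT1-CE5, and 11 of the 13 highest of RT1-CE1, RT1-CE3 and RT1-O1. RT1-T24-4 ran the other way, with 11 of them among its 13 lowest. It stood at 7369, 1539, 6286, 1359 and 7829 in control_chronic, where control_chronic_114 and control_chronic_116, the lowest pair, are the libraries with high RT1-N1. RT1-CE5 in the same order stood at 839, 3018, 661, 3635 and 668 in control_chronic. These 2 control_chronic libraries were thus the highest in RT1-CE5 and the lowest in RT1-T24-4, with no overlap between them and the other 3.

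Over all 14908 genes, 8 shared at least 11 of their 13 highest libraries with RT1-N1, and 7 of those 8 were RT1 genes, RT1-N1 itself among them. At least 11 of the 13 lowest were shared by 4 genes, of which 1 was a member, RT1-T24-4. Among their 13 highest libraries RT1-N3 shared 7 with RT1-N1, RT1-S3 shared 5 and the classical gene RT1-A2 shared 9. This is a description over libraries of all groups, with no test, and the libraries were not compared as groups.

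**Figure D1:**
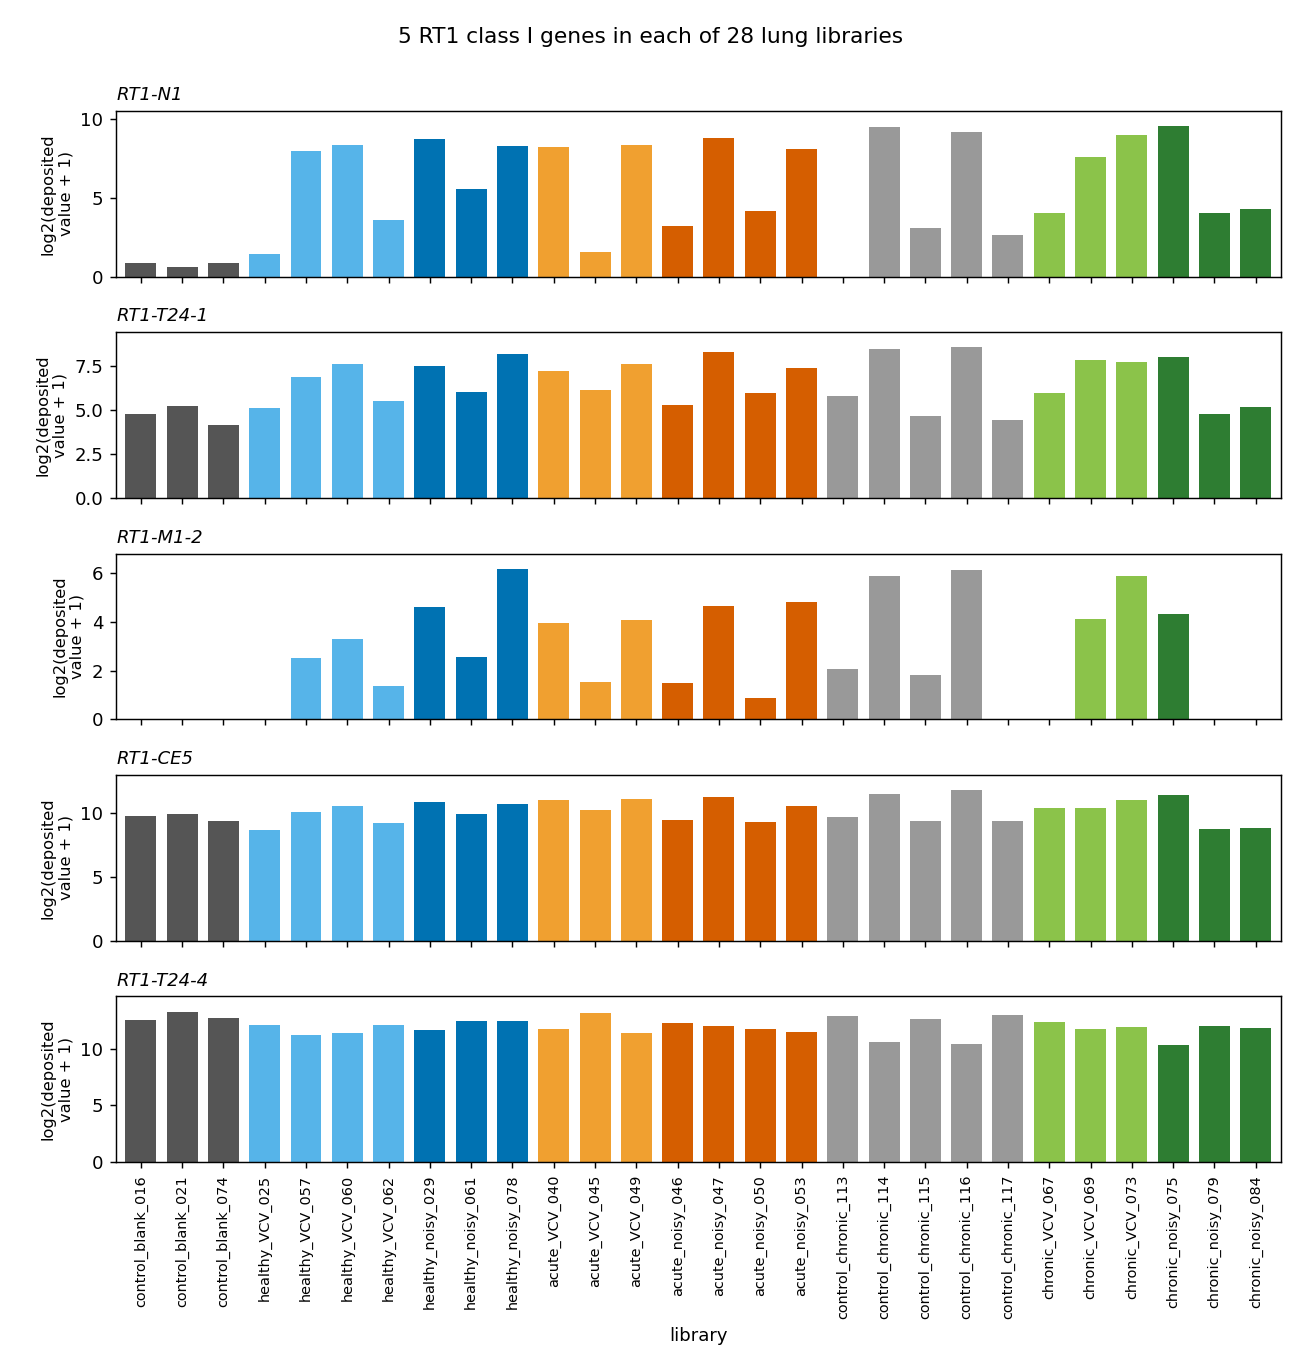
Bars give log2(deposited value + 1) of 5 RT1 class I genes in each of the 28 libraries, coloured by group, with 1 panel per gene and its own vertical axis. RT1-N1 is at 195 or more in 13 libraries and at 45.8 or less in 15, RT1-T24-1 divides the libraries in the same way, and RT1-T24-4 is low where RT1-N1 is high in control_chronic.

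In every comparison with control_blank, all control libraries lay on the low side of RT1-N1. RT1-N1 passed the test in healthy_noisy (adjusted p = 0.032) and acute_noisy (adjusted p = 0.042), and RT1-M1-2 passed it in healthy_noisy (adjusted p = 0.037). With 1 library left out, RT1-N1 lost its call in 5 of 6 fits in healthy_noisy and 5 of 7 in acute_noisy. RT1-M1-2 lost its call in 5 of 6. Size is not given for these genes because control_blank held 0 or 1 read. RT1-CE3 and RT1-O1, which rose in several groups, shared 11 of their 13 highest libraries with RT1-N1, and the part of this pattern in their differences was not tested.

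Class I genes and their loading machinery were higher together in acute injury with constant ventilation. Of the 35 members tested, 13 were higher and 0 lower in acute_VCV than in control_blank, which is 37.1% and 0%, against 20.6% and 16.7% of all genes. At an unadjusted p under 0.05 the counts were 15 and 0. No share of all genes was computed at the unadjusted threshold, here or below, so those counts have no background. EdgeR on recovered reads gave 12 and 0, beside 2737 higher and 2829 lower of all genes. Quantile normalization gave 9 and 0, beside 2596 and 2682. Of 19 class I heavy chain genes 8 rose, all 4 genes of the light chain and loading group rose, and of 11 class II chains and class II loading genes 1 rose. The median difference was 1.02 over the class I heavy chains and 0.02 over the class II genes, beside 0.07 over all genes.

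Tap1, which with Tap2 forms the peptide transporter, stood at 1593, 2412 and 1433 in control_blank and 2513, 4828 and 4769 in acute_VCV. Its groups did not overlap, and it rose by 1.13 ± 0.34 (adjusted p = 0.011). Tap2 stood at 3632, 3812 and 1893 in control_blank and 3391, 6017 and 5708 in acute_VCV, with acute_VCV_040 inside the control range, and rose by 0.72 ± 0.27 (adjusted p = 0.039). Without control_blank_074 the difference of Tap2 was 0.39 (limma adjusted p = 0.252), and the call was also lost without acute_VCV_045 or acute_VCV_049. Tapbp, the tapasin gene, stood at 1122, 1465 and 1150.4 in control_blank and 1856, 2953 and 2707 in acute_VCV. All 3 acute_VCV libraries were above all controls, and the rise was 0.99 ± 0.28 (adjusted p = 0.0087). B2m, the common light chain, stood at 12859.7, 22218 and 19276 in control_blank and 20720.0, 33183 and 30421 in acute_VCV. Its ranges overlapped, and its rise of 0.64 ± 0.25 (adjusted p = 0.044), which was 0.41 without control_blank_016, was lost without any 1 of 4 libraries (control_blank_016, control_blank_074, acute_VCV_045 or acute_VCV_049).

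The classical heavy chain RT1-A2 stood at 6286, 3547 and 4053 in control_blank and at 8719, 8507 and 8934 in acute_VCV. The 3 acute_VCV libraries lay close together above every control, a rise of 0.96 ± 0.25 (adjusted p = 0.0044). RT1-A1, the other RT1-A gene, rose by 1.23 ± 0.38 (adjusted p = 0.013) with overlapping groups. RT1-CE4, a class I gene of the C/E region, stood at 643, 1215 and 852 in control_blank and at 1356, 2414 and 2629 in acute_VCV, a rise of 1.23 ± 0.28 (adjusted p = 0.0015) without overlap. RT1-CE7 was at 436, 758 and 580.0 in control_blank and 849.6, 1442 and 1646 in acute_VCV, and rose by 1.13 ± 0.39 (adjusted p = 0.027). In RefSeq the name RT1-CE7 is a synonym of RT1-CE5, so which copy these reads come from is uncertain. RT1-CE10 rose by 0.65 ± 0.19 (adjusted p = 0.009), and RT1-S3, of the S region, rose by 1.02 ± 0.40 (adjusted p = 0.046) from 794, 1712 and 1210.3 in control_blank to 1569.7, 4232 and 2068 in acute_VCV, with overlap. Without acute_VCV_045 the difference of RT1-S3 was 0.61 (limma adjusted p = 0.275).

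RT1-CE3 had the largest rise of the 13, from a low level. It stood at 1.62, 7.19 and 3.2 in control_blank and 28.9, 18.5 and 44.5 in acute_VCV, a rise of 2.73 ± 0.53 (adjusted p = 0.00035) without overlap. RT1-O1 stood at 8.1, 5.53 and 6.39 in control_blank and 25.6, 12.8 and 37.3 in acute_VCV, a rise of 1.66 ± 0.62 (adjusted p = 0.037). The class II member that rose was RT1-DMa, 1 chain of the peptide exchange factor DM, by 0.64 ± 0.22 (adjusted p = 0.024). The rises of RT1-A2, RT1-CE3, RT1-CE4 and Tapbp passed the test whichever library was left out. The count of 13 was 6 without acute_VCV_049 or without control_blank_074, and 8 without acute_VCV_045 or without control_blank_016.

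In acute injury with variable ventilation, 7 of 11 class II chains and loading genes fell. In acute_noisy, 8 members were higher and 8 lower than in control_blank, against 31.3% and 28.4% of all genes, so that the shares of 22.9% each lay under those of all genes. By edgeR the counts were 13 higher and 8 lower. Of 19 class I heavy chains 7 rose (36.8%, near the 31.3% of all genes), RT1-N1 among them, and 1 fell. Of 11 class II chains and loading genes 0 rose and 7 fell (63.6%, against 28.4% of all genes). Both acute groups were set against the same 3 control_blank libraries, so their differences are not independent.

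On the class I side, RT1-A2 stood at 6123, 11193, 9585 and 6118 in acute_noisy and rose by 0.83 ± 0.23 (adjusted p = 0.0042), with its 2 lowest libraries below the highest control. Tapbp stood at 1961.95, 4682, 2505 and 1726 in acute_noisy and rose by 1.02 ± 0.27 (adjusted p = 0.0022), with every library above the controls. RT1-CE4 at 1324, 2937, 2039.6 and 1395 in acute_noisy and RT1-CE7 at 1456, 2399, 1985 and 940.0 in acute_noisy rose by 1.06 ± 0.26 (adjusted p = 0.0015) and 1.47 ± 0.37 (adjusted p = 0.0016). RT1-S3 at 2614, 5162, 2684 and 1686 in acute_noisy rose by 1.24 ± 0.37 (adjusted p = 0.0062). RT1-CE3 at 23.4, 59.6, 26.1 and 29.3 in acute_noisy rose by 2.89 ± 0.49 (adjusted p = 4.2e-05), and RT1-O1 at 12.6, 57.1, 20.2 and 17.1 in acute_noisy rose by 1.63 ± 0.58 (adjusted p = 0.018). The library acute_noisy_047 was the highest of its group in each of these 7 genes.

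Tap1, Tap2 and B2m did not pass the test here. Tap1 stood at 2334, 5555, 2879.7 and 1781 in acute_noisy, a difference of 0.69 ± 0.32 (adjusted p = 0.062), with acute_noisy_047 at more than any other library of the group. Tap2 stood at 2943, 4943, 3480.2 and 3247 in acute_noisy, a difference of 0.27 ± 0.25 (adjusted p = 0.36). B2m stood at 21848, 39253, 30147 and 15291 in acute_noisy, a difference of 0.51 ± 0.23 (adjusted p = 0.062), and its lowest library lay inside the control range while its highest lay above it. RT1-N3, a non-classical class I gene of the N region, stood at 494, 744, 564 and 696 in acute_noisy against 935, 1065 and 696 in control_blank and fell by 0.52 ± 0.21 (adjusted p = 0.032), with overlap.

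In uninjured lungs under constant ventilation, 6 of 11 class II chains and loading genes fell (54.5%), and 4 of 19 class I heavy chains rose (21.1%). In all, 5 members were higher and 7 lower in healthy_VCV than in control_blank, or 14.3% and 20%, against 29.3% and 28.1% of all genes. RT1-A2 stood at 7298, 4926, 7459.7 and 7416 in healthy_VCV and rose by 0.57 ± 0.23 (adjusted p = 0.039) with overlap. This call was lost in 5 of 7 fits without 1 library, and the difference was 0.40 (limma adjusted p = 0.2) without control_blank_021. RT1-CE7 stood at 1648, 856, 1677 and 1472 in healthy_VCV, above all controls, and rose by 1.24 ± 0.37 (adjusted p = 0.0061). RT1-CE3 at 21.5, 18.8, 28.9 and 12.6 in healthy_VCV and RT1-O1 at 15.7, 30.1, 35 and 28.4 in healthy_VCV rose by 2.20 ± 0.49 (adjusted p = 0.00065) and 1.84 ± 0.58 (adjusted p = 0.0089). RT1-N3 stood at 551, 415, 573 and 487 in healthy_VCV, below every control, and fell by 0.81 ± 0.21 (adjusted p = 0.0018). RT1-S3 stood at 2205, 1481, 2106 and 2353 in healthy_VCV and did not pass the test, and RT1-CE4 stood at 1206.84, 690.5, 1532 and 1206.96 in healthy_VCV.

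The light chain and loading genes did not move past the threshold in healthy_VCV. Tap1 stood at 1733, 1389, 2478 and 1731 in healthy_VCV, a difference of 0.02 ± 0.32 (adjusted p = 0.96), and Tap2 at 2388, 1819.7, 2975 and 2422 in healthy_VCV, a difference of -0.33 ± 0.25 (adjusted p = 0.27). Tapbp stood at 1649, 1516, 2122 and 1715 in healthy_VCV, a difference of 0.49 ± 0.27 (adjusted p = 0.12), although all 4 libraries lay above the 3 controls. B2m stood at 21339, 21683, 26638 and 21898 in healthy_VCV, a difference of 0.37 ± 0.23 (adjusted p = 0.18). The wider list of class I loading and peptide supply (9 of 10 genes found) had 0 higher and 4 lower in healthy_VCV, by limma. Of all genes 29.3% were higher and 28.1% lower there. The 4 were the proteasome activator subunits Psme2 (-1.10 ± 0.25, adjusted p = 0.00081) and Psme1 (-0.80 ± 0.22, adjusted p = 0.0041), the immunoproteasome subunit Psmb10 (-0.67 ± 0.23, adjusted p = 0.017) and Pdia3, a chaperone of the loading complex (-0.36 ± 0.14, adjusted p = 0.026). In acute_VCV the median of the list was 0.41 beside 0.07 over all genes, with no member past the limma threshold.

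In uninjured lungs under variable ventilation few members passed the test. In healthy_noisy 4 were higher and 2 lower than in control_blank, or 11.4% and 5.71%, against 17.5% and 14.6% of all genes. By edgeR the counts were 5 and 4, and in a fit limited to these 2 groups they were 4 and 0. Over all genes edgeR gave 2036 higher and 2795 lower, and the limited fit 1147 and 912. RT1-S3 at 1945, 1715 and 4556 in healthy_noisy rose by 1.07 ± 0.40 (adjusted p = 0.042), RT1-CE3 at 31.4, 7.24 and 19.4 in healthy_noisy rose by 1.97 ± 0.53 (adjusted p = 0.0074), and the other 2 were RT1-N1 and RT1-M1-2. These 4 are 21.1% of the 19 class I heavy chains, near the 17.5% of all genes. Without healthy_noisy_078 the difference of RT1-S3 was 0.63 (limma adjusted p = 0.258), and the call was also lost without control_blank_016, control_blank_074 or healthy_noisy_029. None of Tap1 (1499, 1942 and 3506), Tap2 (2928, 4301 and 3121), Tapbp (1659, 1336 and 2825) and B2m (20146, 17648 and 23401) passed the test. The classical gene RT1-A2 stood at 7083, 5139 and 4980.3 in healthy_noisy, a difference of 0.33 ± 0.25 (adjusted p = 0.31), and RT1-CE4 at 1216, 1449.6 and 1606 in healthy_noisy, a difference of 0.70 ± 0.28 (adjusted p = 0.061). RT1-CE7 stood at 1197, 1161 and 845 in healthy_noisy, RT1-O1 at 43.1, 10.8 and 21.5 in healthy_noisy and RT1-N3 at 753, 968 and 968 in healthy_noisy. Healthy_noisy_078 was the highest of its group in RT1-S3, Tap1, Tapbp and B2m. The 6 calls fell to 0 without control_blank_016, to 2 without healthy_noisy_029 and to 1 without healthy_noisy_078. Over all genes 2610 higher and 2181 lower became 1432 and 1234 without control_blank_016.

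**Figure D2:**
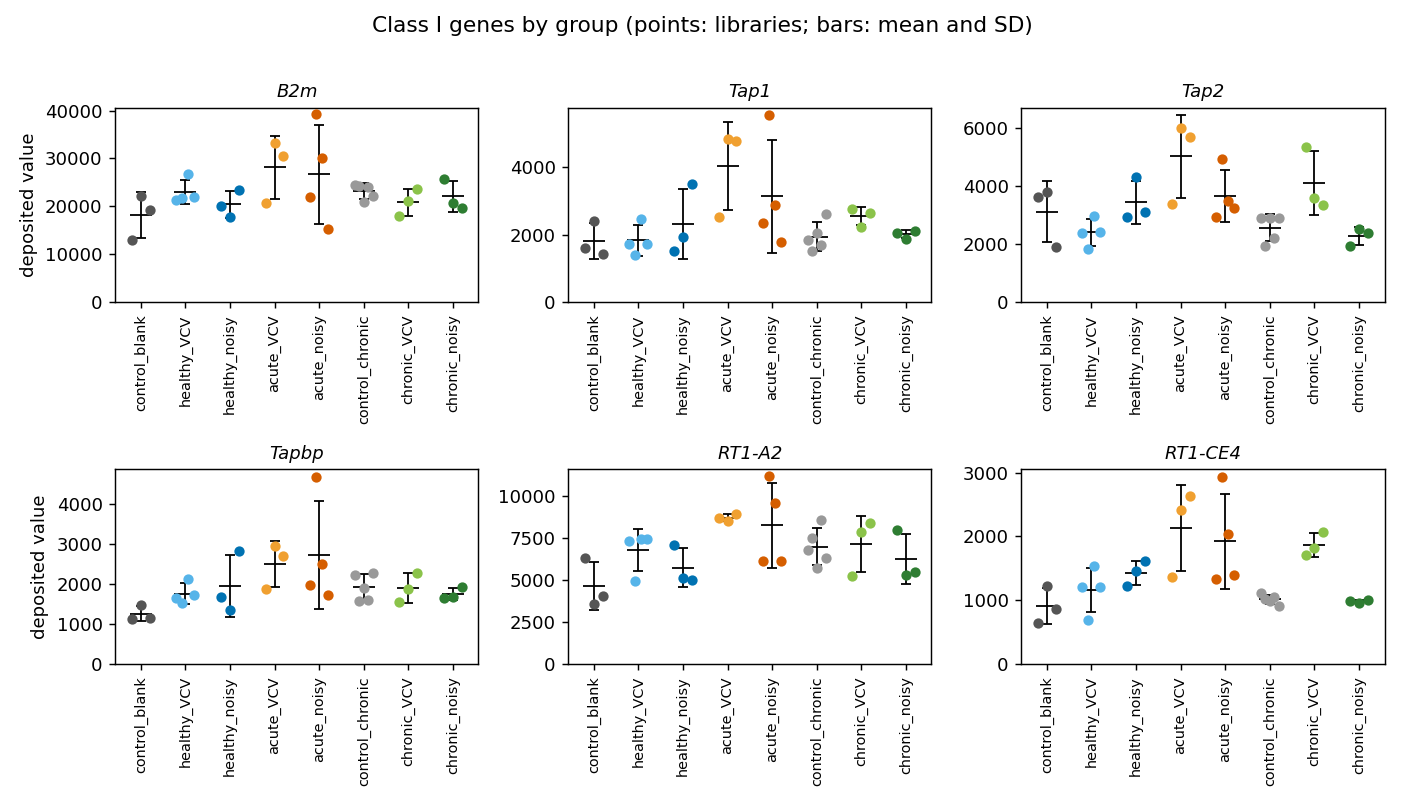
Points give the deposited value of each library by group for B2m, Tap1, Tap2, Tapbp, RT1-A2 and RT1-CE4, and bars give the group mean and SD. The 3 acute_VCV libraries lie above all 3 control_blank libraries for Tap1, Tapbp, RT1-A2 and RT1-CE4, and RT1-CE4 in chronic_VCV lies above control_chronic and chronic_noisy.

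Class II genes were lower than in control_blank in healthy_VCV and acute_noisy. Cd74, the invariant chain, stood at 42066, 28594 and 25587 in control_blank, at 23722, 17227, 21268 and 23161 in healthy_VCV and at 21748, 17843, 19948 and 22006 in acute_noisy. Every library of both ventilated groups lay below every control, and Cd74 fell by 0.57 ± 0.19 (adjusted p = 0.014) in healthy_VCV and by 0.63 ± 0.19 (adjusted p = 0.0069) in acute_noisy. In acute_VCV it stood at 37030.4, 35031 and 25583, across the control range, with a difference of 0.04 ± 0.20 (adjusted p = 0.91). In healthy_noisy it stood at 26410.4, 26858 and 18072, with a difference of -0.42 ± 0.20 (adjusted p = 0.11).

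RT1-Da, the alpha chain of the D molecule (the counterpart of human DR), stood at 13682, 8177 and 8393 in control_blank, 7302, 5847, 6404 and 6800.2 in healthy_VCV and 7452, 6016, 6042 and 6035 in acute_noisy. It fell by 0.58 ± 0.19 (adjusted p = 0.014) in healthy_VCV and by 0.62 ± 0.19 (adjusted p = 0.0079) in acute_noisy, both without overlap. In acute_VCV it stood at 11075, 10611 and 7488, inside the control range at 2 libraries and below it at 1. RT1-Db1, its beta chain, stood at 7780.0, 5445 and 3962 in control_blank, 4315, 2612, 3595 and 3799 in healthy_VCV and 3821, 2885, 3194 and 3485 in acute_noisy. It fell by 0.65 ± 0.23 (adjusted p = 0.018) and by 0.73 ± 0.23 (adjusted p = 0.008) in the same groups, and stood at 7127, 6767 and 4586 in acute_VCV and 4304, 4832 and 2470.2 in healthy_noisy. RT1-Ba, the alpha chain of the B molecule (the counterpart of human DQ), stood at 7811, 5036 and 3662 in control_blank, 4208, 2540.3, 3452 and 3144 in healthy_VCV, 3161, 3897 and 1416 in healthy_noisy and 4193, 3003, 3107 and 2434.9 in acute_noisy. It fell by 0.68 ± 0.28 (adjusted p = 0.042) in healthy_VCV, by 1.02 ± 0.30 (adjusted p = 0.013) in healthy_noisy and by 0.75 ± 0.28 (adjusted p = 0.024) in acute_noisy, each with overlap, and in acute_VCV it stood at 5164, 5675 and 4217. Without healthy_noisy_078 the difference in healthy_noisy was -0.58 (limma adjusted p = 0.12).

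The DO chains, which restrain DM, fell in the same 2 groups. RT1-DOa stood at 509.8, 382 and 265 in control_blank, 157, 91.1, 129 and 134 in healthy_VCV and 112.8, 67.1, 62.4 and 179.7 in acute_noisy. All 8 ventilated libraries lay below all 3 controls, a fall of 1.56 ± 0.42 (adjusted p = 0.0028) in healthy_VCV and of 1.94 ± 0.42 (adjusted p = 0.0004) in acute_noisy, and both passed the test whichever library was left out. In healthy_noisy it stood at 264, 229 and 99.2, a difference of -1.03 ± 0.45 (adjusted p = 0.078), and in acute_VCV at 375, 179.8 and 156, a difference of -0.76 ± 0.45 (adjusted p = 0.18). RT1-DOb stood at 143, 128 and 124 in control_blank, 109, 56.4, 55.2 and 67.9 in healthy_VCV and 67.7, 51.3, 52.3 and 56.2 in acute_noisy. It fell by 0.91 ± 0.33 (adjusted p = 0.024) in healthy_VCV and by 1.20 ± 0.33 (adjusted p = 0.0038) in acute_noisy, without overlap. Its values were 166, 67.6 and 76.5 in acute_VCV and 105, 125 and 40.9 in healthy_noisy, and neither group passed the test. RT1-Ha, the counterpart of human DP and low in all libraries (3.06 to 53.8), fell by 1.71 ± 0.57 (adjusted p = 0.024) in healthy_noisy and by 1.87 ± 0.53 (adjusted p = 0.0042) in acute_noisy.

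Ciita, the activator of class II transcription, did not follow the chains. It stood at 273, 223 and 307 in control_blank and 439.8, 329.8, 399.5 and 410.0 in healthy_VCV, and rose by 0.56 ± 0.19 (adjusted p = 0.017) in healthy_VCV without overlap, where 6 of 11 class II chains and loading genes fell. Ciita lost this call without control_blank_021 (0.44, limma adjusted p = 0.097). In the other groups it stood at 409, 306 and 239 in healthy_noisy, 301, 332 and 239 in acute_VCV and 257, 321, 367 and 238 in acute_noisy, with differences of 0.23 ± 0.21 (adjusted p = 0.42), 0.12 ± 0.21 (adjusted p = 0.69) and 0.14 ± 0.19 (adjusted p = 0.56). The DM chains did not fall in any comparison with control_blank, and RT1-DMa in acute_noisy stood at 1139, 876, 1043 and 989 against 974, 825 and 657 in control_blank.

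Many of these class II calls rested on 1 control library. Control_blank_016 was the highest control in Cd74, RT1-Da, RT1-Db1, RT1-Ba, RT1-DOa, RT1-DOb and RT1-Ha. Without it the falls of Cd74 became -0.35 (adjusted p = 0.151) in healthy_VCV and -0.41 (adjusted p = 0.0868) in acute_noisy, and those of RT1-Da (-0.34 and -0.38), RT1-Db1 (-0.40 and -0.48) and RT1-Ba (-0.39 and -0.46) were lost as well. The counts of called members against control_blank were then 5 higher and 2 lower in healthy_VCV, and 6 higher and 3 lower in acute_noisy. Counts over all genes fell too without it. In healthy_VCV 4366 higher and 4193 lower became 3531 and 3111, and in acute_noisy 4672 and 4239 became 3834 and 3449. The falls of RT1-DOa in both groups, and those of RT1-DOb and RT1-Ha in acute_noisy, remained called without it.

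Markers of cells that carry class II moved with these groups in both directions. Of all genes, 29.3% were higher and 28.1% lower in healthy_VCV, and 17.5% and 14.6% in healthy_noisy. The shares were 20.6% and 16.7% in acute_VCV, 31.3% and 28.4% in acute_noisy, and 9.3% and 5.55% in control_chronic. B cell markers (9 of 10 found) had 5 of 9 lower in healthy_VCV, 5 in healthy_noisy, 1 in acute_VCV and 7 in acute_noisy, with 0 higher in each. Their medians were -1.13, -1.84, -0.44 and -1.29, and their summed values ran 2774 to 3749 in control_blank, 839.9 to 2431.9 in healthy_VCV, 855 to 1305 in healthy_noisy, 1635.7 to 4047 in acute_VCV and 947 to 2187 in acute_noisy. Fcer2, the low-affinity IgE receptor of B cells, fell by 3.44 ± 0.66 (adjusted p = 0.00014) in acute_noisy and Cd79b, part of the B cell receptor, by 1.63 ± 0.55 (adjusted p = 0.014). None of the 9 was at 0 throughout a group. Dendritic cell markers (8 of 10 found) had 5 higher and 1 lower of 8 in healthy_VCV and in acute_noisy, with summed values of 904 to 1383 in control_blank, 1778 to 2453 in healthy_VCV and 1878 to 2584 in acute_noisy.

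Macrophage markers (8 of 12 found) had 5, 5, 5 and 6 of 8 higher and 0 lower in healthy_VCV, healthy_noisy, acute_VCV and acute_noisy. Their sums were 7105 to 7797 in control_blank, 9207 to 12812 in healthy_VCV and 7446 to 13491 in acute_noisy. T and NK cell markers (12 of 12 found) had 1 higher and 4 lower in healthy_VCV and 0 and 7 in healthy_noisy. They had 0 and 0 in acute_VCV, and 2 and 4 in acute_noisy. The 4 of 12 lower in healthy_VCV and in acute_noisy lie near the 28.1% and 28.4% of all genes. Neutrophil markers, of cells that carry little class II, had 6 of 6 higher in all 4 groups, with sums of 2689.8 to 3073 in control_blank, 18791 to 31805 in healthy_VCV, 25018 to 32938 in healthy_noisy, 29395 to 113853 in acute_VCV and 22275 to 88426 in acute_noisy. Lung epithelial markers had 5, 3, 2 and 5 of 7 lower in the same 4 groups, with sums of 578435 to 675646 in healthy_VCV and 701834 to 906959.7 in acute_VCV. Heart muscle markers (4 of 6 found, none at 0 throughout a group) had 2, 4, 1 and 4 of 4 lower in the same 4 groups and 3 of 4 lower in control_chronic, with 0 higher in each. Their medians were -1.47, -4.20, -0.20, -4.17 and -3.60, and their sums 1513 to 7844 in healthy_VCV, 248 to 926 in healthy_noisy, 4470.2 to 10864 in acute_VCV, 171 to 6789 in acute_noisy and 533 to 846 in control_chronic. The part of any of these lists in the class I and class II differences was not tested. In whole lung, fewer cells of a type and less RNA per cell cannot be told apart.

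**Figure D3:**
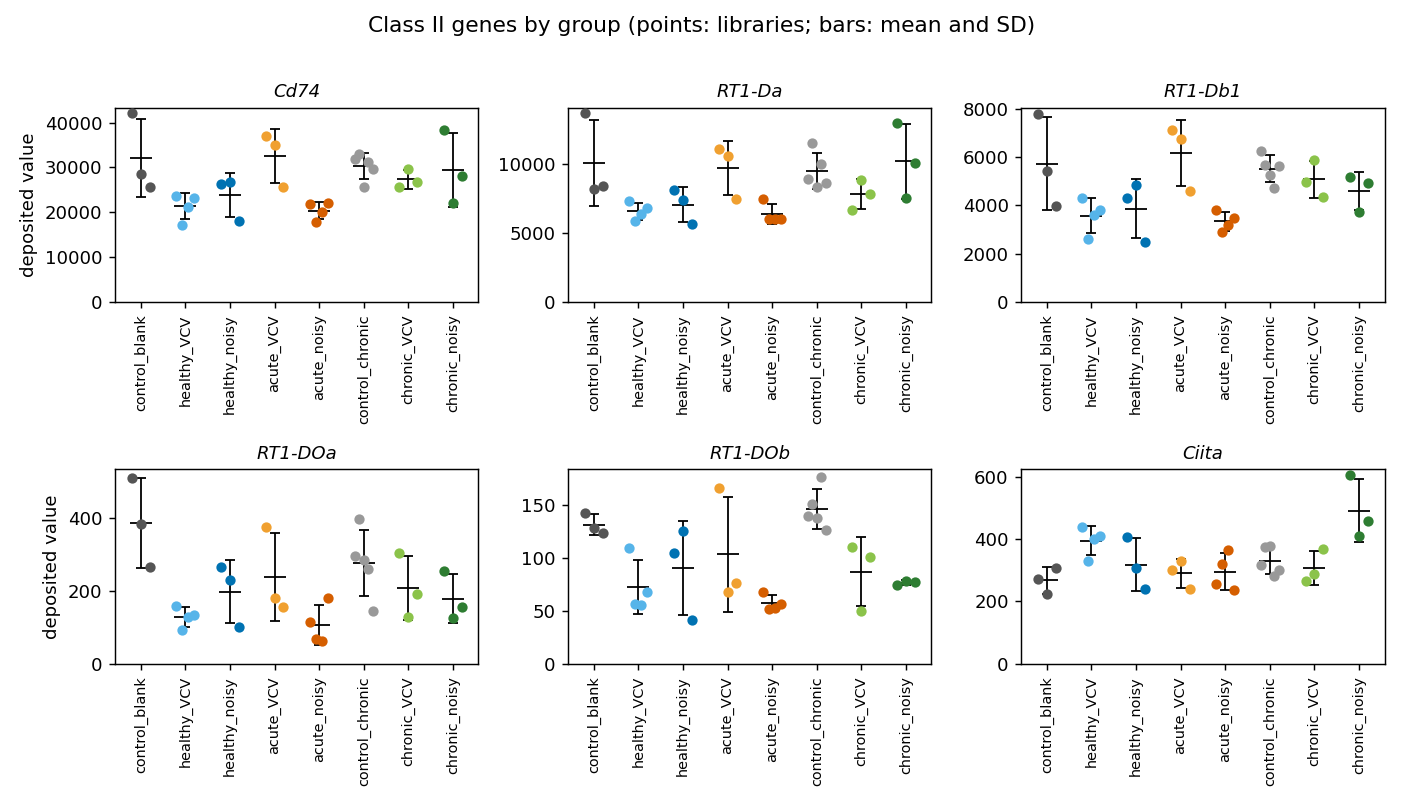
Points give the deposited value of each library by group for Cd74, RT1-Da, RT1-Db1, RT1-DOa, RT1-DOb and Ciita, and bars give the group mean and SD. Healthy_VCV and acute_noisy lie below control_blank for the 5 class II genes, apart from 1 healthy_VCV library of RT1-Db1, control_blank_016 is the highest control in each of the 5, and Ciita has its highest group mean in chronic_noisy.

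Other genes of these pathways, taken from lists, moved as follows. In the list of MHC transcription and interferon gamma signalling (16 of 20 found, 15 tested), 8 were higher and 0 lower in acute_VCV, 9 and 2 in acute_noisy, 6 and 3 in healthy_VCV, and 2 and 1 in healthy_noisy. Of all genes 20.6% were higher and 16.7% lower in acute_VCV, and 31.3% and 28.4% in acute_noisy. The shares were 29.3% and 28.1% in healthy_VCV, and 17.5% and 14.6% in healthy_noisy. Medians of the list were 0.69, 0.90, 0.37 and 0.44, beside 0.07, 0.03, -0.03 and 0.01 over all genes. Jak2, a kinase of the interferon gamma receptor, rose by 1.26 ± 0.32 (adjusted p = 0.0033) in acute_VCV and by 1.78 ± 0.30 (adjusted p = 3.2e-05) in acute_noisy. Ifngr2, a chain of that receptor, rose by 1.11 ± 0.23 (adjusted p = 0.00064) in acute_VCV, Irf8 by 1.06 ± 0.23 (adjusted p = 0.00092) and Irf1, a transcription factor of the interferon response, by 1.02 ± 0.28 (adjusted p = 0.0063). In acute_noisy the largest change was that of Creb1, a factor of the class II promoter complex, with 2.02 ± 0.35 (adjusted p = 4.7e-05).

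In the list of class II processing (8 of 10 found), 3 were higher and 0 lower in both acute groups, and 2 and 0 in both healthy ventilated groups. Of all genes 20.6% were higher in acute_VCV, 31.3% in acute_noisy, 29.3% in healthy_VCV and 17.5% in healthy_noisy. The list's medians were 0.38, 0.25, 0.19 and 0.27 in that order. Ctsl1, a cathepsin, rose by 1.73 ± 0.26 (adjusted p = 2.5e-05) in acute_VCV and 1.70 ± 0.24 (adjusted p = 5.2e-06) in acute_noisy, and Ctsb, another cathepsin, by 1.19 ± 0.17 (adjusted p = 1.7e-05) and 0.89 ± 0.16 (adjusted p = 6.1e-05). March1, the ligase that removes class II from the cell surface, rose by 1.87 ± 0.37 (adjusted p = 0.00018) in healthy_VCV, 1.53 ± 0.39 (adjusted p = 0.0056) in healthy_noisy and 2.18 ± 0.37 (adjusted p = 3.7e-05) in acute_noisy. Class I-like genes and Fc receptors outside the RT1 region (6 of 6 found) had 1 higher and 4 lower in both acute groups. Of all genes 20.6% were higher and 16.7% lower in acute_VCV, and 31.3% and 28.4% in acute_noisy. The 4 were Azgp1, Mr1, Fcgrt (the neonatal Fc receptor) and Hfe, of which Fcgrt fell by 0.67 ± 0.25 (adjusted p = 0.037) in acute_VCV and 1.02 ± 0.23 (adjusted p = 0.00071) in acute_noisy. Procr, the protein C receptor, rose by 1.74 ± 0.32 (adjusted p = 0.00022) and 1.75 ± 0.30 (adjusted p = 4e-05).

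Few members also passed the test in chronic injury without ventilation. In control_chronic 1 member was higher and 1 lower than in control_blank, or 2.86% each, against 9.3% and 5.55% of all genes. RT1-CE3 stood at 9.53, 21.8, 10.2, 25.2 and 15 in control_chronic and rose by 1.86 ± 0.47 (adjusted p = 0.015), and RT1-N3 stood at 575, 640.4, 516, 453 and 528 in control_chronic and fell by 0.72 ± 0.20 (adjusted p = 0.021), both without overlap. For RT1-CE3 the recovered reads were few and did overlap, 2, 13 and 4 in control_blank and 3, 11, 8, 15 and 14 in control_chronic. In control_chronic_113, where 1 read was worth 3.18, 3 reads gave 9.53. With a pseudocount of 10, 0 members were higher. Of the loading genes, Tap1 stood at 1833, 1508.8, 2054, 1686 and 2617 and Tap2 at 2907, 1925, 2897, 2200.4 and 2900.1, both overlapping the controls. Tapbp stood at 2221, 1554, 1904, 1603 and 2278, above all 3 controls, with a difference of 0.61 ± 0.25 (adjusted p = 0.1) that missed the threshold. B2m was at 24498, 24267, 20793, 24065 and 22189, and Cd74 at 31876, 32999, 25655, 31139 and 29682, a difference of -0.06 ± 0.18 (adjusted p = 0.86). RT1-A2 at 6806, 7528, 5722, 8571 and 6307 in control_chronic differed by 0.62 ± 0.22 (adjusted p = 0.06). Among class II genes, RT1-DOa stood at 296, 397, 284, 261 and 145 in control_chronic, RT1-DOb at 139.8, 151, 138, 177 and 126 and Ciita at 318, 377, 378, 283 and 302, and none of the 12 class II chain, loading and regulator genes passed the test. Both calls were lost without control_blank_016, and 1 remained without control_blank_021. Over all genes 1386 higher and 828 lower became 106 and 98 without control_blank_016.

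Few members changed with ventilation of chronically injured lungs. In chronic_VCV 2 were higher and 0 lower than in control_chronic, by limma and by edgeR, or 5.71% and 0%, against 6.89% and 7.9% of all genes. At an unadjusted p under 0.05 the counts were 3 and 2. RT1-CE4 stood at 1106, 1023, 987, 1039.7 and 909 in control_chronic and 1701, 1819 and 2065 in chronic_VCV, a rise of 0.88 ± 0.25 (adjusted p = 0.022) without overlap. RT1-N3 stood at 970.5, 672 and 849.8 in chronic_VCV, above all control_chronic libraries, and rose by 0.61 ± 0.20 (adjusted p = 0.039). Tap2 stood at 5365, 3600.2 and 3364 in chronic_VCV, also above all 5 controls, with a difference of 0.67 ± 0.24 (adjusted p = 0.061) that missed the threshold. Tap1 stood at 2769, 2238 and 2637, Tapbp at 1537, 1873.1 and 2274, B2m at 17913, 21127 and 23542 and Cd74 at 25637, 29686 and 26784. The count was 0 without chronic_VCV_073, and 1 without any of chronic_VCV_067, chronic_VCV_069, control_chronic_113, control_chronic_115 or control_chronic_116.

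In chronic_noisy 1 member was higher and 2 lower than in control_chronic, or 2.86% and 5.71%, against 19.1% and 18.1% of all genes. Ciita stood at 318, 377, 378, 283 and 302 in control_chronic and 606, 410.3 and 460.5 in chronic_noisy, a rise of 0.56 ± 0.19 (adjusted p = 0.022) without overlap. Ciita lost this call without chronic_noisy_075 (0.40, limma adjusted p = 0.14), chronic_noisy_084 or control_chronic_116. RT1-DOb stood at 74, 78.1 and 77.1 in chronic_noisy, below all 5 controls (139.8, 151, 138, 177 and 126), and fell by 0.92 ± 0.32 (adjusted p = 0.028). RT1-CE1, of the C/E region, stood at 1738, 2982, 1444.2, 3169 and 1507.9 in control_chronic and 1581, 1069 and 898 in chronic_noisy, and fell by 0.83 ± 0.29 (adjusted p = 0.028) with overlap. Its highest control_chronic libraries, control_chronic_114 and control_chronic_116, are those high in RT1-N1, and the call was lost without the first (-0.70, limma adjusted p = 0.0709) or the second (-0.67, limma adjusted p = 0.08). The part of the RT1-N1 pattern in this fall was not tested. Cd74 stood at 38302, 22059.5 and 28046 in chronic_noisy, RT1-Da at 13008, 7543 and 10073 and RT1-DOa at 254, 126 and 156, without a call. The count was 0 without chronic_noisy_084 or control_chronic_116, and 1 without chronic_noisy_079. B cell markers fell in both ventilated groups, 6 of 9 in chronic_VCV and 4 of 9 in chronic_noisy, with summed values of 2018 to 2952 in control_chronic, 351 to 1626 in chronic_VCV and 1012 to 1457 in chronic_noisy. Their part in the fall of RT1-DOb was not tested. Dendritic cell markers had 4 higher and 1 lower of 8 in chronic_noisy, and 1 and 1 in chronic_VCV. Macrophage markers had 6 higher and 0 lower of 8 in chronic_noisy, and 5 and 0 in chronic_VCV. Of all genes, 6.89% were higher and 7.9% lower in chronic_VCV. The part of these 2 lists in the calls was not tested. Heart muscle markers had 1 of 4 lower in chronic_VCV (median -2.09) and 2 of 4 higher in chronic_noisy (median 2.46, sums 1679 to 6427), and their part in these calls was not tested. These 2 comparisons share the control_chronic libraries.

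The mode of ventilation was compared directly within each injury state. With acute injury, 0 members were higher and 5 lower under variable than under constant volume, or 0% and 14.3%, against 11.9% and 12.3% of all genes, with the same counts by edgeR and 0 and 9 at an unadjusted p under 0.05. The 5 were RT1-N3 and 4 class II genes. Cd74 fell by 0.66 ± 0.19 (adjusted p = 0.016) from 37030.4, 35031 and 25583 in acute_VCV to 21748, 17843, 19948 and 22006 in acute_noisy, RT1-Db1 by 0.86 ± 0.23 (adjusted p = 0.01) and RT1-Da by 0.59 ± 0.19 (adjusted p = 0.029), each without overlap. RT1-DOa fell by 1.18 ± 0.42 (adjusted p = 0.042) with overlap. The class I gene RT1-N3 fell by 0.62 ± 0.21 (adjusted p = 0.032) from 881, 1240.3 and 782 in acute_VCV to 494, 744, 564 and 696 in acute_noisy, without overlap. Heart muscle markers had 4 of 4 lower in the same comparison (median -3.51), and their part in these differences was not tested. The median of the 9 B cell markers was -0.80, with no marker past the limma threshold. Proteasome activator subunits fell too, Psme2 by 0.89 ± 0.25 (adjusted p = 0.015) and Psme1 by 0.67 ± 0.22 (adjusted p = 0.034). A fit limited to these 2 groups called 0 of the 35, and 0 of the 14908 genes, and the count was 0 without acute_VCV_040, 1 without acute_VCV_045 and 2 without acute_noisy_050.

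In uninjured lungs 1 member was higher and 0 lower under variable volume, or 2.86% and 0%, against 4.31% and 6.01% of all genes. Unadjusted counts were 3 and 0, and edgeR gave 1 and 0. RT1-N3 rose by 0.82 ± 0.21 (adjusted p = 0.029) from 551, 415, 573 and 487 in healthy_VCV to 753, 968 and 968 in healthy_noisy, without overlap. The call was lost with the number series as a covariate, within series 15 alone, where healthy_VCV is a single library assumed to vary like the other groups, and without any of healthy_VCV_025, 057 or 060 or healthy_noisy_029 or 061. Heart muscle markers had 3 of 4 lower there (median -3.49), and their part in the rise of RT1-N3 was not tested. With chronic injury 0 members were higher and 0 lower, by limma and by edgeR, against 0.563% and 1.86% of all genes. At an unadjusted p under 0.05, 1 was higher and 5 lower. The 6 were Ciita (0.67 ± 0.21, adjusted p = 0.077), RT1-N3 (-0.76 ± 0.22, adjusted p = 0.064), Tap2 (-0.84 ± 0.27, adjusted p = 0.083), RT1-CE4 (-0.93 ± 0.28, adjusted p = 0.073), RT1-M6-2 (-1.90 ± 0.60, adjusted p = 0.081) and RT1-CE10 (-0.44 ± 0.19, adjusted p = 0.17). RT1-CE4 stood at 976, 945 and 997 in chronic_noisy, below all chronic_VCV libraries.

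**Figure D4:**
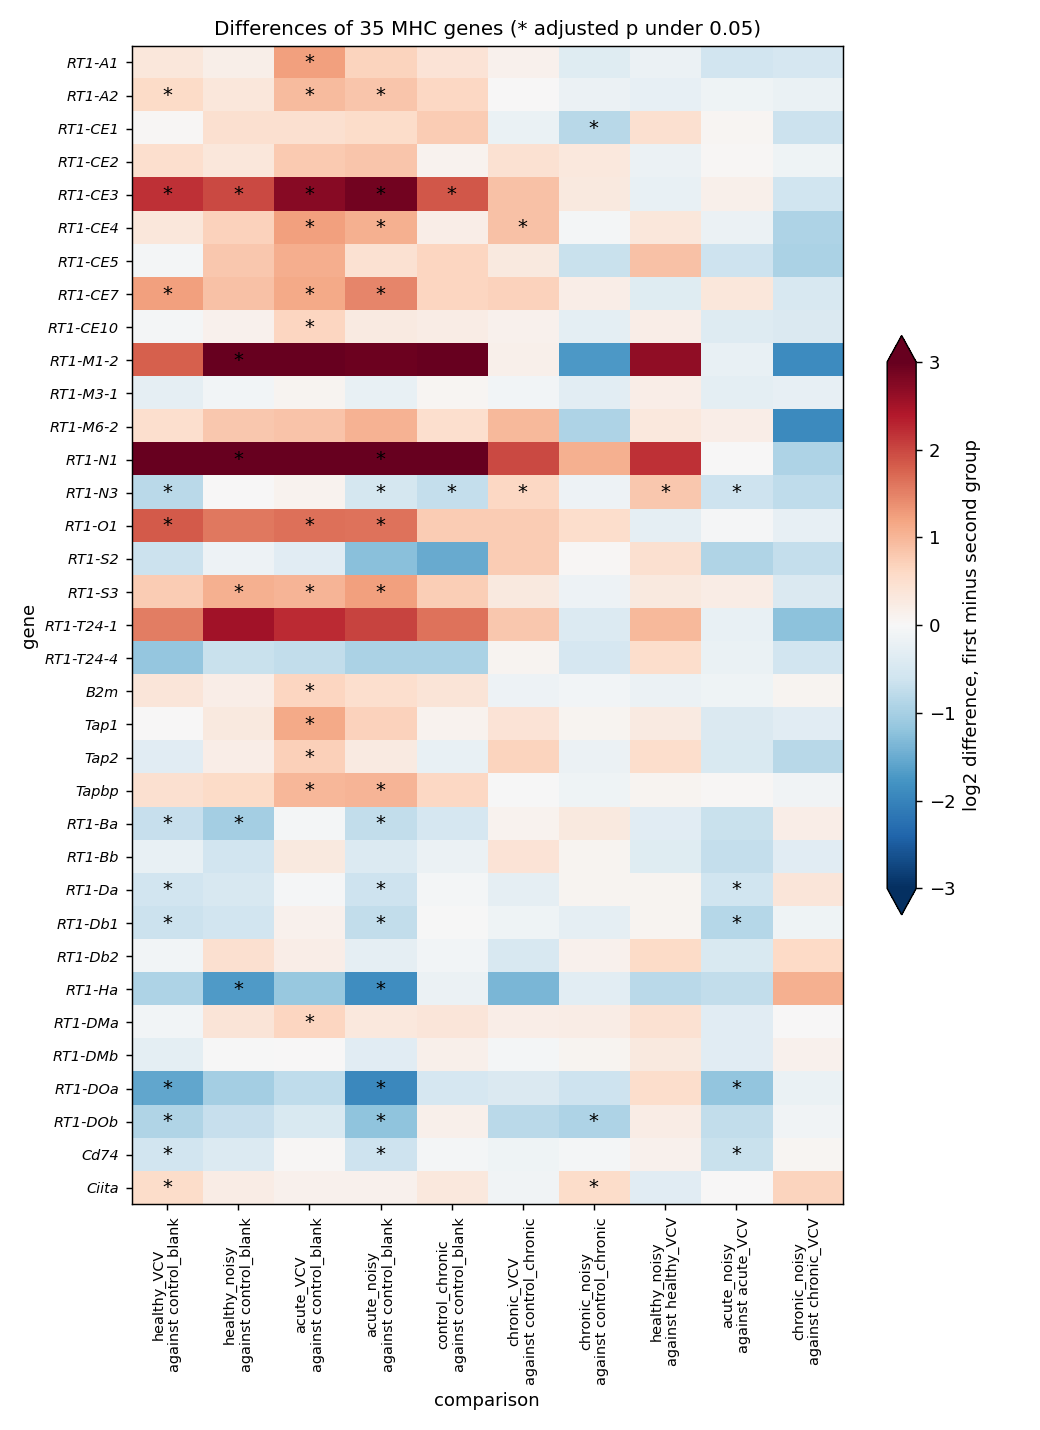
Colours give the log2 difference (first minus second group) of the 35 tested members in 10 comparisons, limited to 3 in either direction, and asterisks mark adjusted p under 0.05. In acute_VCV against control_blank 8 of 19 class I heavy chains and all 4 light chain and loading genes are marked higher, and of 11 class II chains and loading genes 6 are marked lower in healthy_VCV and 7 in acute_noisy.

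Whether the effect of mode differed between injury states was tested as a difference of differences. For acute minus uninjured lungs, 0 members were higher and 6 lower, or 0% and 17.1%, against 19.6% and 19.4% of all genes, with 0 and 9 at an unadjusted p under 0.05 and 0 and 5 by edgeR. RT1-N3 had the smallest adjusted p, with a difference of -1.44 ± 0.29 (adjusted p = 0.00097). Variable volume went with more of it in uninjured lungs and less in acute injury, and the difference passed the test whichever library was left out. A series covariate could not be fitted here, since acute_VCV lies in series 12 and acute_noisy in series 14 and 15. The rise of RT1-N3 in uninjured lungs was lost with the series covariate. Its fall in acute injury was lost in the limited fit and in 4 of 7 fits without 1 library. The other 5 were RT1-DOa (-1.71 ± 0.59, adjusted p = 0.025), Tap2 (-0.97 ± 0.36, adjusted p = 0.034), RT1-Db1 (-0.94 ± 0.32, adjusted p = 0.023), Cd74 (-0.81 ± 0.27, adjusted p = 0.021) and RT1-DMa (-0.79 ± 0.29, adjusted p = 0.034). Their count of 6 became 1 without healthy_noisy_061, 2 without acute_VCV_040 or healthy_VCV_057, 3 without acute_VCV_045 or healthy_noisy_029, and 10 without healthy_noisy_078.

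For chronic minus uninjured lungs, 1 member was higher and 4 lower, or 2.86% and 11.4%, against 15.7% and 14% of all genes. RT1-N3 differed by -1.58 ± 0.30 (adjusted p = 0.0017), Tap2 by -1.36 ± 0.37 (adjusted p = 0.01), RT1-CE4 by -1.28 ± 0.39 (adjusted p = 0.017), RT1-M6-2 by -2.21 ± 0.83 (adjusted p = 0.046) and Ciita by 1.01 ± 0.28 (adjusted p = 0.012). RT1-M6-2 was low throughout, with 31 recovered reads at most and 1, 11 and 11 in chronic_noisy. Without chronic_noisy_075, the library with 1 read, the difference of RT1-M6-2 was -1.40 (limma adjusted p = 0.157). Its call was lost in 8 of 13 fits without 1 library. All but RT1-M6-2 passed the test whichever library was left out. With the number series as a covariate, however, 0 of the 5 passed. That series term rests on healthy_VCV and on acute_noisy, the groups that hold libraries of both series 14 and 15. The count was 8 without chronic_VCV_069 or chronic_noisy_075. Heart muscle markers had 4 of 4 higher in this difference, with a median of 8.40, and their part in it was not tested. The effect of constant ventilation against no ventilation was also set between chronic injury and uninjured lungs. It was higher in chronic injury for 2 members and lower for 0, or 5.71% and 0%, against 9.92% and 14% of all genes, with 2 and 1 at an unadjusted p under 0.05, 2 and 0 by edgeR, and 2 and 1 in a limited fit. RT1-N3 differed by 1.42 ± 0.28 (adjusted p = 0.005) and Tap2 by 1.00 ± 0.35 (adjusted p = 0.04), and RT1-N3 passed the test whichever library was left out. Tap2 was lost without any 1 of 8 libraries, and the count was 1 without any of control_blank_016 or 021, healthy_VCV_025, 057 or 062, control_chronic_114, control_chronic_116 or chronic_VCV_067, and 4 without control_blank_074. The 3 differences share groups and are not independent of one another.

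Members that passed the test in no comparison were RT1-CE2, RT1-CE5, RT1-M3-1, RT1-S2, RT1-T24-1, RT1-T24-4, RT1-Bb, RT1-Db2 and RT1-DMb. RT1-M3-1, whose product presents formylated peptides, was the most even of them, at 453 to 817 over the 28 libraries. RT1-CE2 and RT1-CE7 were both lowest within control_chronic in control_chronic_114 and control_chronic_116, at 496 and 547 for RT1-CE2, where RT1-N1 was high. RT1-Db2, a second D beta gene at low level, was highest in these 2 libraries of that group, at 248 and 187 against 20.4 to 28.6 in the other 3. These are values of single libraries, with no test.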

How the data were processed

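The table holds a signal per gene and library, deposited by the authors, in which each library's read counts are divided by its size factor. This was checked on the values: 100% of those above 0 were whole multiples of 1 step per library within 0.1 read, and dividing by the step gave the recovered reads. Poly-dT selection and the dUTP strand-specific method are given per the labels' protocols, CASAVA 1.8.0, BWA, bedtools 2.11, DESeq 1.8.3 and build rn4 per the submitters' processing notes with no role or order, and Ensembl 67 per the file header. The use of strand and the treatment of reads with several matches in counting are not given in the sources used here. Of the value columns, 0 lacked a sample. Replicates of a group differed by a chi-square of at least 15.3 per gene, so no library was a copy of another in its group. Libraries of different groups were not compared in this way.

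Tests covered the 14908 of 17002 genes whose deposited values averaged 10 or more. Log2(deposited value + 1) was fitted with limma 3.58.1 (R 4.3.3), with 8 group means, an intensity trend and a robust prior, two-sided, with Benjamini-Hochberg adjustment over all genes at 0.05. Alternatives were edgeR 4.0.16 on recovered reads, a pseudocount of 10, no filter, quantile normalization, separate fits of the compared groups, omission of single libraries, and the number series as a covariate or restricted to series 15. Leaving out the 2 shallowest control_chronic libraries together was also tried. Every member could be named, with values in each library for the all-or-none gene, for B2m, Cd74, Tap1, Tap2, Tapbp and Ciita, and for RT1 genes called in at least 3 comparisons. From each list at most 4 genes with the largest change past the threshold were named. Members and lists were chosen with earlier results of these data known. Promoters came from the RefSeq table of GRCr8, which was used for no other coordinates. Python 3.11.15 was used with pandas 2.3.3, numpy 2.4.6 and, for plots, matplotlib 3.10.9.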

Additional observations from a re-analysis of the deposited data

Results flagged for a closer look

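In groups of at least 4 libraries, 108 combinations of a member and a group were examined for a single library far from the others, and 7 were found, where chance gives about 1 in 20. In healthy_VCV, B2m was 26638.25 in library 060 against 21338.85 to 21898.24 in the others. In the same group library 057 was low in RT1-A2, at 4925.54 against 7298.22 to 7459.73, and in RT1-CE10, at 1558.55 against 2297.32 to 2355.71. In acute_noisy, library 047 was high in RT1-CE3, at 59.62 against 23.45 to 29.34, and in RT1-M3-1, at 714.59 against 519.49 to 546.58. Library 046 of that group was high in RT1-Da, at 7451.8 against 6015.6 to 6041.94. RT1-M6-2 was 16.06 in control_chronic_117 against 7.93 to 10.19 in the others of its group. These are low levels, 15 recovered reads in control_chronic_117 and 3 to 8 in the others.

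Differences between injury states passed the limma test (adjusted p under 0.05) for 13 combinations. The log2 effect of variable against constant volume was lower in acute injury than in uninjured lungs for Cd74 (-0.81), RT1-DMa (-0.79), RT1-DOa (-1.71), RT1-Db1 (-0.94), RT1-N3 (-1.44) and Tap2 (-0.97). Between chronic injury and uninjured lungs it was higher for Ciita (1.01) and lower for RT1-CE4 (-1.28), RT1-M6-2 (-2.21), RT1-N3 (-1.58) and Tap2 (-1.36). The effect of constant ventilation against none was higher in chronic injury than in uninjured lungs for RT1-N3 (1.42) and Tap2 (1.00).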

How the results depend on the processing

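No paired analysis was possible because no replicate number occurs in more than 1 group. Of 73 member calls, 0 reversed under the alternatives run. The calls kept were 68 with edgeR, 73 without a filter, 68 with a pseudocount of 10, 66 with quantile normalization and 52 in limited fits. Of 587 calls repeated with 1 library left out, 419 were kept. Quantile normalization moved the median of all genes from -0.03 to -0.13 in healthy_VCV against control_blank and from -0.08 to -0.15 in the mode difference between acute and uninjured lungs.

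Leaving out 1 library, the count of called members ranged from 7 to 12 in healthy_VCV, 0 to 9 in healthy_noisy, 6 to 13 in acute_VCV, 9 to 18 in acute_noisy and 0 to 2 in control_chronic, each against control_blank. Against control_chronic it ranged from 0 to 2 in chronic_VCV and 0 to 3 in chronic_noisy. Between modes it ranged from 0 to 1 in uninjured lungs, 0 to 5 in acute and 0 to 1 in chronic injury. For differences between injury states the ranges were 1 to 10 (mode, acute), 4 to 8 (mode, chronic) and 1 to 4 (constant ventilation). Counts over all genes moved in such fits too. In acute_noisy against acute_VCV 1774 higher and 1835 lower became 284 and 496 without acute_VCV_040. In acute_VCV against control_blank 3066 and 2497 became 3322 and 2364 without control_blank_074, where the member count was 6.

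Other counts that moved were control_chronic against control_blank, 1 with a pseudocount of 10, and 3 counts without control_chronic_113 and control_chronic_114, which became 1 each (chronic_VCV, chronic_noisy and the constant ventilation difference). The mode count in uninjured lungs was 0 within series 15 and 0 with the series covariate, and that of the chronic mode difference was 0 with the covariate. In limited fits the mode count was 0 in acute and 1 in chronic injury. Members with a wide range numbered 1 with a pseudocount of 10. The cause of these changes was not tested. Low depth limits RT1-N1 and RT1-M1-2, whose low libraries hold few reads, and RT1-M6-2, with 31 recovered reads at most.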
